A study of Mus musculus with 6 samples.

Results

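Gene expression of the genes that flank Olig2 on mouse chromosome 16 was compared between Olig2-/- and Olig2+/+ embryos. Olig2 encodes a basic helix-loop-helix transcription factor of ventral neural progenitors and of the oligodendrocyte lineage. The group was a list of 42 neighbouring genes, from Tiam1 on one side to Bace2 on the other, without Olig2 and its neighbour Olig1. A gene was followed through every non-control probe set (a set of short array probes that reports 1 value) whose annotation named that gene alone. Of the 42 symbols, 41 had such a probe set (Dopey2 had none under that symbol), with 130 probe sets among the 45037 on the array. A probe set was kept for testing when it lay above its array's median on at least 3 of the 6 arrays. This left 84 probe sets of 36 genes, 81 of them above the median on all 6 arrays. The other 3 were above it on 3 to 5 arrays, with arrays of both genotypes among them, so none was kept through 1 genotype alone.

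The tissue was E13.5 ventral telencephalon by the sample labels and ventral forebrain by the design text (E, embryonic day). Each array carried RNA pooled from 3 brains, and 3 of 5 stated replicates per genotype were analysed: wild-type replicates 1, 4 and 5 and knockout replicates 2, 4 and 5. The labels give no strain, litter or sex, and do not say which construct replaced Olig2 or whether the pools came from separate litters. P-values therefore measure the spread between these 6 pools. Ventral forebrain markers were measured in both genotypes: 9 of the 10 genes of that list on the array were kept. Of these, 2 were higher and 7 lower in the knockout. The genotypes did not overlap for 3 of these 9, beside 16.2% of all kept probe sets. Those 3 had log2 differences of 0.54 for Gsx2, -0.89 for Six3 and -0.33 for Lhx6. Their adjusted p from limma was 0.511, 0.511 and 0.525. The Dlx genes overlapped, with differences from -0.15 for Dlx2 to 0.02 for Dlx6. The part of these marker differences in the other results was not tested.

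Genes that lie beside a targeted gene are inherited with it. In a knockout made in embryonic stem cells of one strain and bred to another, DNA around the targeted allele can stay that of the first strain. A base that differs between strains under a probe alters hybridisation without a change in RNA. Mouse chromosome 16 around Olig2 is also the region that matches human chromosome 21, so many of these genes are studied for their dosage in Down syndrome. The labels do not say whether the embryos differ in strain around Olig2 or where the probes lie, and the part of strain DNA in any value was not tested.

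Gart with Son and Cryzl1 with Itsn1 are neighbours that start head to head on opposite strands. They are shown because each pair mixes a gene with probe sets that did not overlap between genotypes and a partner that gave other values. The sequences are the 250 bases before each start in RefSeq's table (GRCm38.p6), read 5′ to 3′ towards the start, with the motifs CCAAT and GGGCGG in capitals on either strand. The starts of Gart and Son are separated by 851 bases, and those of Cryzl1 and Itsn1 by 568.
Gart (chr16:91646973-91647222, minus strand): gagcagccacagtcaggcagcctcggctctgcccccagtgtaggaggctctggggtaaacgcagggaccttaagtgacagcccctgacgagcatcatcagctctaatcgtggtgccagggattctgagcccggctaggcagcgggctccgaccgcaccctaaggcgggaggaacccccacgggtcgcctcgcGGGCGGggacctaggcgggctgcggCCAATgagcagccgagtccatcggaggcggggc
Son (chr16:91647574-91647823, plus strand): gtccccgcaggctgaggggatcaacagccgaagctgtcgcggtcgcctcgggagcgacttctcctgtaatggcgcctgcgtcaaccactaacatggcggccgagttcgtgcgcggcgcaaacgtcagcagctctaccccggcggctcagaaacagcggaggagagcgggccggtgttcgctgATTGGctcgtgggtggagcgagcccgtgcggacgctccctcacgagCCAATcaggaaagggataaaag
Cryzl1 (chr16:91728803-91729052, minus strand): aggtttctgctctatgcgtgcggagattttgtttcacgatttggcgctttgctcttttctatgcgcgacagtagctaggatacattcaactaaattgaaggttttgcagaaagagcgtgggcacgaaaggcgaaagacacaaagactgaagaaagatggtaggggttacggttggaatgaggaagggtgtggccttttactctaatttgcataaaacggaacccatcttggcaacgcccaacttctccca
Itsn1 (chr16:91729121-91729370, plus strand): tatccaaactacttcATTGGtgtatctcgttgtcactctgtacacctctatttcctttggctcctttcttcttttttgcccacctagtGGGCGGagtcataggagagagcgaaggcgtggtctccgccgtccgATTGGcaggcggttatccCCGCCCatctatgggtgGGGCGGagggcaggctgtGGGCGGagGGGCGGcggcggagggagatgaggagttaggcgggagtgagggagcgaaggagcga

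Itsn1 held 5 matches of GGGCGG and 2 of CCAAT, Gart held 1 of each, Son held 2 of CCAAT, and Cryzl1 held neither. No CCAAT match overlapped a GGGCGG match in these 4 windows. None of the 4 held CANNTG, the E-box core that basic helix-loop-helix factors such as Olig2 bind, which says only that these letters are not in these windows. RefSeq's table held 50 promoter windows for 38 of the 41 genes. CANNTG stood in 34% of them against 66.2% of all 32851 promoters of the same length, CCAAT in 34% against 33.8%, and GGGCGG in 64% against 32.7%. The members' windows had a median GC content of 67.2% against 52.4%, and its part in these shares was not tested.

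Olig2 and Olig1 were the landmarks, and the flanking genes were ordered on either side of them. Olig2 read 8.20, 8.22 and 8.42 in the wild type and 7.48, 7.53 and 7.76 in the knockout (log2), a difference of -0.69, and Olig1 differed by 1.69. The genotypes did not overlap for either gene. Which stretch of Olig2 was removed is not stated in the labels, so these values do not check the deletion.

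Among the marker lists, knockout replicate 2 stood apart in that of meninges and mesenchyme. Its sums for blood, microglia, endothelium and ventral forebrain lay within the range of the other arrays. Wild-type replicate 4 was paired with it in earlier results of these data. Deviations of these 2 arrays from their group means correlated by 0.38 across the 22565 kept probe sets. That was the highest of the values between knockout and wild-type arrays. The values ran down to -0.36 for knockout replicate 2 with wild-type replicate 5 and included 0.32 for the arrays numbered 5. Deviations within a genotype cancel out, so these correlations are tied together, and a high value brings low values elsewhere. The summed linear level of 12 meninges and mesenchyme markers was 976 on knockout replicate 2, against 277 and 301 on the other knockout arrays and 314 to 465 in the wild type. Of these markers, 5 were kept and none lay near the array's floor of 2.27 on every array. In the ventral forebrain list wild-type replicate 1 stood highest, at 8051 against 5661 to 6226 on the other arrays. Wild-type replicate 4 lay within the range of the other arrays in both lists (314 and 5886). The part of these arrays in each result was not tested. The counts and some of the probe sets that rest on these arrays are given with and without the pair.

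In pooled tissue, fewer cells of a type and less RNA per cell cannot be told apart. None of the 84 kept probe sets passed limma's adjusted p of 0.05, and none of all 22565 did (0%). The smallest adjusted p was 0.511 for both. Differences went equally both ways, with 42 probe sets higher and 42 lower in the knockout and a median of -0.0025 on the log2 scale, beside 0.0022 over all kept probe sets. The median size of a difference, sign aside, was 0.12 among the members and 0.13 over all. At limma's unadjusted p of 0.05 there were 12 member probe sets of 10 genes (14.3%), where the share over all kept probe sets was 9.4%. Of these, 8 were higher and 4 lower.

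The genotypes did not overlap in 18 member probe sets of 11 genes (21.4%), beside 16.2% of all kept probe sets. The knockout was higher in 10 of them (8.96% over all kept probe sets) and lower in 8 (7.25%). Without knockout replicate 2 and wild-type replicate 4 the shares were 53.6% and 48.9%, and without knockout replicate 2 alone 32.1% and 31.2%. The share at unadjusted p of 0.05 was below that of all probe sets without knockout replicate 4 (2.38% and 5.34%), without knockout replicate 5 (2.38% and 4.97%) and without wild-type replicate 5 (5.95% and 6.76%). The members' share at that p was thus above the background in some settings and below it in others.

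**Figure D1:**
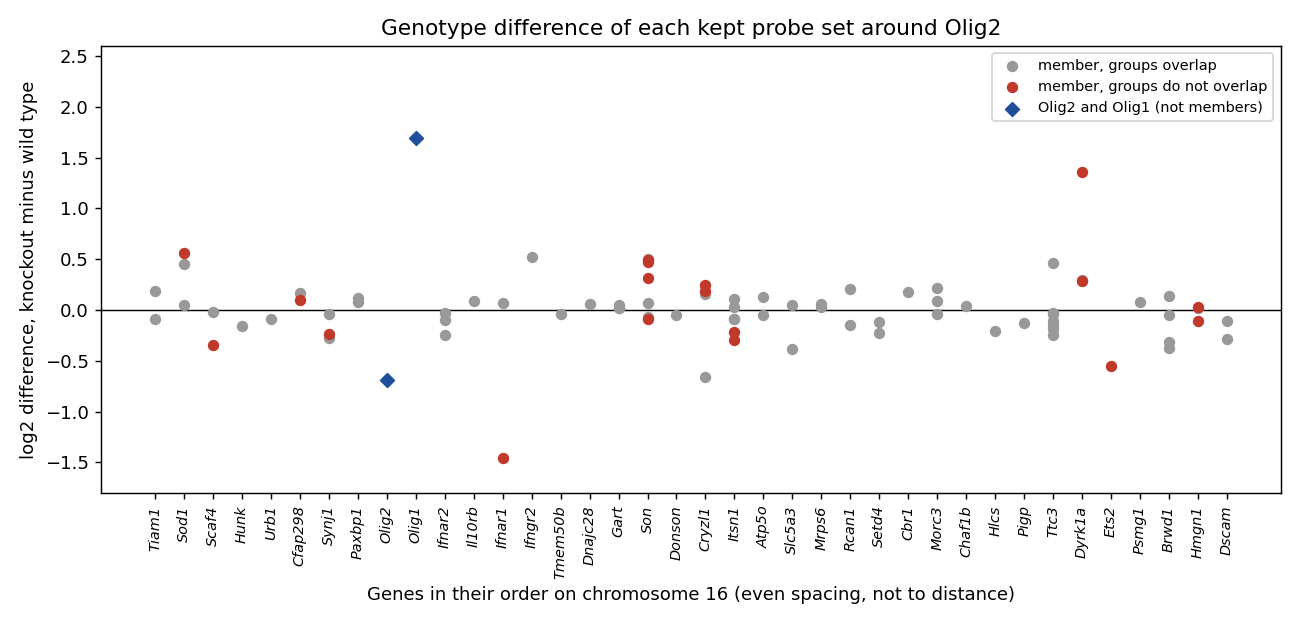
Log2 difference (knockout minus wild type, vertical axis) of each of the 84 kept probe sets, with genes placed in their order on chromosome 16 at even spacing. Red points are member probe sets whose groups did not overlap, grey points overlapped, and blue diamonds are Olig2 (-0.69) and Olig1 (1.69). Differences above and below 0 both occur before and after Olig2, and the 2 farthest members from 0 are single probe sets of Ifnar1 (-1.46) and Dyrk1a (1.36).

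Order along the chromosome was taken from the RefSeq gene table. Tiam1 lay 12 coding genes before Olig2 and Bace2 55 after it. The genes before Olig2 were Tiam1, Sod1, Scaf4, Hunk, Urb1, Cfap298, Synj1 and Paxbp1, and the 10 nearest members after it ran from Ifnar2 to Cryzl1. Among the 40 kept probe sets of these 18 nearest genes, 23 were higher and 17 lower, with a median of 0.050, and 11 did not overlap (27.5%, beside 16.2% of all kept probe sets). Among the 44 of the other kept genes, 19 were higher and 25 lower, with a median of -0.045, and 7 did not overlap (15.9%, near that background). Probe sets of 1 gene are not independent, and Son, with 7 of the 40 near probe sets, gave more of the 11 than any other gene. The difference between near and far genes was not tested.

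Neighbouring genes gave different signs. Sod1 had a probe set without overlap that read higher in the knockout, and Scaf4, the next gene, had one that read lower. Ifnar1 stands between Il10rb and Ifngr2, and its probe set without overlap read lower while that of Ifngr2 read higher with overlap. Of the 22 other measured genes between Tiam1 and Bace2, 6 had kept probe sets (Vps26c, Smim11, Dop1b, Mis18a, Pcp4 and Get1). Their 7 probe sets ranged from -0.20 for Pcp4 to 0.16 for Get1, and the groups did not overlap for 1, at Mis18a (0.099). Dop1b, the newer symbol of Dopey2, differed by -0.021.

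Chromosome 16 as a whole had 689 kept probe sets, of which 19.2% did not overlap. That was the highest share of the 20 chromosomes with at least 100 kept probe sets, ahead of 18.7% on chromosome 3. On chromosome 16 outside the stretch from Tiam1 to Bace2 the share was 18.6% of 587 probe sets. The rank of the whole chromosome, members included, ran from 1 to 4 over the filters, normalizations and left-out arrays. It was 4 without a filter, without knockout replicate 2 and without knockout replicate 5. The comparison of chromosomes was added after the values were seen, and no test of a chromosome was made.

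**Figure D2:**
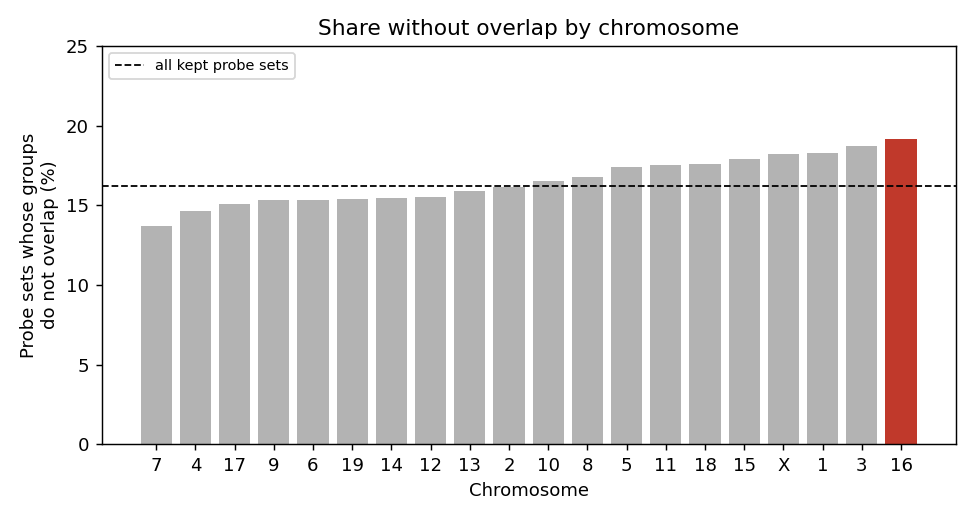
Percent of kept probe sets whose knockout and wild-type arrays did not overlap (vertical axis) on each of the 20 chromosomes, sorted, with chromosome 16 in red. The dashed line is the 16.2% of all kept probe sets, and chromosome 16 stands at 19.2%, beside 13.7% on chromosome 7 at the other end.

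The interferon and IL-10 family receptors lie next to Olig1. Ifnar1 and Ifnar2 form the receptor of type I interferons, Ifngr2 is a subunit of the interferon gamma receptor, and Il10rb is a shared subunit of IL-10 family receptors. They signal through JAK kinases and STAT factors. The groups did not overlap in 1 of their 7 kept probe sets (14.3%), near the 16.2% of all kept probe sets.

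Ifnar1 had 2 kept probe sets that gave different results. Probe set 1442222_at read 6.28, 6.60 and 6.46 in wild-type replicates 1, 4 and 5 and 6.05, 4.54 and 4.37 in knockout replicates 2, 4 and 5 (log2). All knockout arrays lay below all wild-type arrays, but knockout replicate 2 was much closer to the wild type than to the other knockout arrays. The group means were 6.45 ± 0.16 and 4.99 ± 0.93 (SD, n = 3 each), a 2.75-fold lower level with a log2 difference of -1.46 (SE 0.45, limma's adjusted p = 0.511). The second probe set, 1449026_at, read from 6.57 on wild-type replicate 4 to 7.0 on wild-type replicate 1, with the knockout arrays at 6.77, 6.96 and 6.87. Its groups overlapped, with a difference of 0.07 (SE 0.13).

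The gap between the Ifnar1 probe sets was tested directly. On each array a probe set was set against the mean of the other kept probe sets of its gene, and limma was run on these deviations for 13836 probe sets of genes with at least 2. Of those, 2 passed an adjusted p of 0.05 (0.0145%), the mirror pair of 2 probe sets of Actb, a cytoskeletal actin gene named after its values were seen. For Ifnar1 the deviation differed by -1.53 (SE 0.48, adjusted p = 0.423), so it did not pass. Without knockout replicate 2 and wild-type replicate 4 it was -1.91 (adjusted p = 0.047), and without knockout replicate 2 it was -2.11 (0.0527), both from limma. Knockout replicate 2 was the knockout array nearest the wild type here, so leaving it out widens the gap by itself. The pair was also chosen with earlier results of these data known, so these 2 values are no independent support. Without both arrays 0.137% of all tested deviations passed, and with wild-type replicate 4 alone left out no member did (smallest adjusted p = 0.155). A gene with 2 kept probe sets gives the same test with opposite sign for both, and the 2 Ifnar1 probe sets that passed without both arrays are 1 result.

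Ifngr2 read 4.37, 5.10 and 4.57 in the wild type and 5.03, 5.17 and 5.40 in the knockout. The groups overlapped at wild-type replicate 4, with a difference of 0.52 (SE 0.21, limma's adjusted p = 0.511). Without knockout replicate 2 and wild-type replicate 4 it was 0.82 (limma's adjusted p = 0.249). Those were the lowest knockout and highest wild-type arrays, so leaving them out widens the gap by itself. A second probe set of Ifngr2 lay at the array's floor. The 3 kept probe sets of Ifnar2 were all lower, by -0.25, -0.09 and -0.03, with overlapping groups. Il10rb was dim and read 3.99 on 5 arrays and 4.27 on knockout replicate 4.

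Of 22 receptor partners and targets of these cytokines outside the members, 20 were on the array and 10 were kept. None passed limma's adjusted p of 0.05, and 3 were higher and 7 lower, with a median of -0.051. The kinases Tyk2 (-0.17), Jak2 (-0.24) and Jak1 (-0.14) and the factor Stat2 (0.17) had the lowest p. The groups did not overlap for Tyk2 and Jak2, 2 of the 10, beside 16.2% of all kept probe sets. Among interferon-induced genes of the list, Ifit2 read 4.65 to 5.38 over the 6 arrays and differed by -0.02, and Irf9 read 4.03 to 4.96 and differed by 0.15. Ifit1, Ifit3, Irf7, Mx1, Oasl2, Bst2 and Usp18 stayed below 2.5 on every array, near the floor of 2.27. Blood cells and microglia also carry these receptors. Summed linear levels of 10 blood markers ranged from 17663 to 19233 in the knockout and 16692 to 19569 in the wild type, and those of 12 microglia and macrophage markers from 147 to 159 and from 126 to 153. Most of the blood sum came from the globin gene Hbb-y, at 13.94 to 14.11 (log2) over the arrays. All 5 kept blood markers were higher in the knockout and none lower, with a median of 0.12 and overlapping groups. Aif1, C1qc, Ptprc and Trem2 among the microglia markers, and Epor, Gata1, Hba-a1 and Klf1 among the blood markers, were near the floor. The part of these cells in the receptor values was not tested.

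**Figure D3:**
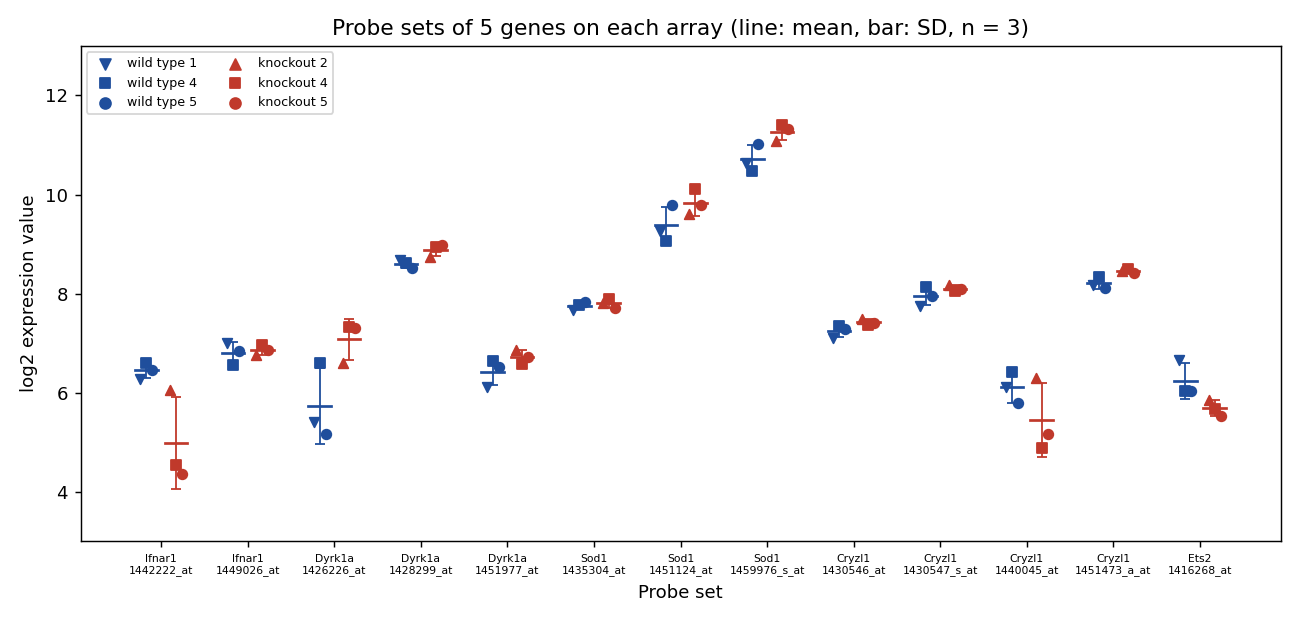
Log2 expression (vertical axis) of all 13 kept probe sets of Ifnar1, Dyrk1a, Sod1, Cryzl1 and Ets2 on each array, wild type in blue and knockout in red, with marker shapes for replicate numbers, lines for means and bars for SD (n = 3). At 1442222_at of Ifnar1 knockout replicate 2 (6.05) sits near the wild type while knockout replicates 4 and 5 are at 4.54 and 4.37, and at 1440045_at of Cryzl1 knockout replicate 2 (6.30) is again above the other knockout arrays.

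Among kinases and signalling genes, Dyrk1a gave the largest positive difference. Dyrk1a is a dosage-sensitive kinase that phosphorylates, among others, NFAT factors. Its probe set 1426226_at read 5.41, 6.59 and 5.16 in the wild type and 6.60, 7.32 and 7.31 in the knockout. The groups did not overlap, but wild-type replicate 4 and knockout replicate 2 nearly met. The difference was 1.36 (SE 0.42, 2.56-fold higher, limma's adjusted p = 0.511), and it was 2.03 without those 2 arrays (adjusted p = 0.235). They were the highest wild-type and lowest knockout arrays here, so leaving them out widens the gap by itself.

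The brightest Dyrk1a probe set, 1428299_at, read 8.67, 8.62 and 8.51 in the wild type and 8.75, 8.94 and 8.98 in the knockout, with no overlap and 0.29 higher (SE 0.09). The third, 1451977_at, was 0.30 higher (SE 0.15) with overlap. All 3 probe sets of Dyrk1a were therefore higher in the knockout, and the mean of the 3 differed by 0.65 (SE 0.17, limma's adjusted p = 0.533 over gene means). Set against the other 2, 1426226_at deviated by 1.06 (SE 0.36, adjusted p = 0.423). Rcan1, an inhibitor of calcineurin, differed by -0.15 and 0.21 at its 2 probe sets. Of 11 other calcineurin and NFAT genes, 9 were kept, 4 higher and 5 lower, and none passed. Rcan2 (-0.48), Rcan3 (-0.50), Nfat5 (-0.35) and Nfatc4 (0.13) had the lowest p.

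Synj1 and Itsn1, which act in synaptic vesicle recycling and endocytosis, read lower at some probe sets. Synj1 1436334_at read 7.99, 7.76 and 7.70 in the wild type and 7.68, 7.48 and 7.58 in the knockout, a difference of -0.24 (SE 0.11) without overlap. Its other probe sets differed by -0.27 and -0.04 with overlap. Itsn1 1435885_s_at read 8.06, 7.73 and 7.83 in the wild type and 7.54, 7.63 and 7.57 in the knockout, a difference of -0.30 (SE 0.10), and 1452338_s_at differed by -0.21. The other 4 probe sets of Itsn1 ranged from -0.09 to 0.11 with overlap.

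Ttc3, a ubiquitin ligase, had 7 kept probe sets, of which 6 were lower and 1 higher. The higher one, 1416482_at, read 8.06, 8.23 and 8.32 in the wild type and 8.31, 8.93 and 8.76 in the knockout. The difference was 0.46 (SE 0.18) with overlap, as knockout replicate 2 lay just below wild-type replicate 5. Without knockout replicate 2, the lowest knockout array, and wild-type replicate 4 it was 0.66 (limma's adjusted p = 0.265). Ttc3 1441684_at, chosen after its values were seen, read 6.72 on knockout replicate 2 and 6.22 on wild-type replicate 4, against 3.17 to 4.74 on the other 4 arrays. There these 2 arrays of different genotype were the high ones. Hunk, a kinase (-0.15), and Tiam1, a Rac exchange factor (-0.09 and 0.19), overlapped.

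The groups did not overlap in 5 of the 12 kept probe sets of RNA-binding and ribosome genes (41.7%, beside 16.2% of all kept probe sets). Son carried most of these, and probe sets of 1 gene are not independent. This share was not tested. Son is a nuclear speckle protein needed for splicing. Its 7 kept probe sets ranged from -0.09 to 0.50. Probe set 1455634_at read 7.88, 7.96 and 7.72 in the wild type and 8.24, 8.08 and 8.18 in the knockout, 0.32 higher (SE 0.09). Probe sets 1456630_x_at and 1420951_a_at were 0.49 (SE 0.18) and 0.47 (SE 0.20) higher, also without overlap. The groups were close at wild-type replicate 4, which read 6.58 and 8.28 there against lowest knockout values of 6.63 and 8.30. Without knockout replicate 2 and wild-type replicate 4 the differences were 0.72 and 0.65 (limma's adjusted p = 0.286 and 0.295). Wild-type replicate 4 was the highest wild-type array at both, so leaving it out widens the gap by itself.

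The brightest Son probe set went the other way. Probe set 1420952_at read 10.88, 10.92 and 10.89 in the wild type and 10.86, 10.81 and 10.74 in the knockout, a difference of -0.09 (SE 0.07) without overlap. Its deviation from the other Son probe sets differed by -0.39 (SE 0.13, limma's adjusted p = 0.423). The mean of the 7 was 0.24 higher. Gart, whose start lies across from that of Son and which encodes an enzyme of purine synthesis, had 3 kept probe sets that differed by 0.02, 0.02 and 0.05 with overlapping groups.

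Scaf4, which binds the RNA polymerase II tail, read 5.42, 5.27 and 5.48 in the wild type and 5.11, 4.82 and 5.20 in the knockout at 1452396_at, a difference of -0.35 (SE 0.12) without overlap. Its brighter probe set, 1427333_s_at, differed by -0.02 (SE 0.09). Urb1, a ribosome biogenesis factor (-0.09), and the mitochondrial ribosomal protein gene Mrps6 (0.06 and 0.03) overlapped.

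Metabolic and mitochondrial genes had 12 kept probe sets higher and 5 lower. Sod1, the cytosolic copper and zinc superoxide dismutase, read 10.64, 10.48 and 11.03 in the wild type and 11.09, 11.40 and 11.32 in the knockout at 1459976_s_at. The groups did not overlap and the difference was 0.56 (SE 0.17, 1.47-fold, limma's adjusted p = 0.511). Probe set 1451124_at was 0.46 higher (SE 0.23) with overlap, and 1435304_at differed by 0.05 (SE 0.08). The first deviated from the other Sod1 probe sets by 0.31 and the last by -0.46 (adjusted p = 0.423 each, limma).

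Cryzl1, a quinone oxidoreductase-like gene, was higher at 3 probe sets and lower at 1. Probe set 1451473_a_at read 8.18, 8.34 and 8.10 in the wild type and 8.45, 8.50 and 8.42 in the knockout, 0.25 higher (SE 0.08), and 1430546_at was 0.18 higher (SE 0.09), both without overlap. The fourth, 1440045_at, read 6.10, 6.42 and 5.79 in the wild type and 6.30, 4.89 and 5.16 in the knockout, a difference of -0.65 (SE 0.39). Knockout replicates 4 and 5 lay below all wild-type arrays there and knockout replicate 2 did not. Without knockout replicate 2 and wild-type replicate 4 the difference was -0.92 (limma's adjusted p = 0.253). A dimmer probe set of the inositol transporter gene Slc5a3, 1440227_at, chosen after its values were seen, read 5.34, 6.12 and 6.00 in the wild type and 5.90, 5.22 and 5.18 in the knockout. Its brighter probe set differed by 0.05. Cryzl1 and Itsn1 start head to head, and their probe sets without overlap were higher for the first and lower for the second. Atp5o, a subunit of ATP synthase (0.13 and -0.05), Pigp, of GPI anchor synthesis (-0.12), Cbr1 (0.18) and Hlcs (-0.21) overlapped.

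Among transcription and chromatin genes, Ets2, an ETS family factor, read 6.66, 6.03 and 6.03 in the wild type and 5.85, 5.68 and 5.53 in the knockout. The groups did not overlap, with a difference of -0.55 (SE 0.20, 1.46-fold lower, limma's adjusted p = 0.511). The gap was widest at wild-type replicate 1, and without that array the difference was -0.34. Its other 2 probe sets lay at the floor. Hmgn1, a nucleosome-binding protein, was among the brightest members. Its probe set 1422495_a_at differed by -0.11 and 1438940_x_at by 0.03, both without overlap in opposite directions. The second rests on knockout replicate 5 at 13.78, with the other 5 arrays within 13.69 to 13.70. Names ending in _x_at or _s_at mark probe sets that can match several transcripts. Brwd1, a bromodomain protein, had 3 probe sets lower and 1 higher (-0.37 to 0.13) with overlap. The higher one, 1452322_a_at, deviated from the others by 0.38 (SE 0.14, limma's adjusted p = 0.423). It was dim, at 3.60 to 4.01 (log2) over the arrays, and its own difference was 0.13. Paxbp1 (0.11 and 0.08), Morc3 (-0.04 to 0.21), Chaf1b (0.04), Donson (-0.05) and Setd4 (-0.11 and -0.22) overlapped.

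The other kept members gave small differences. Cfap298, a cilia gene, was 0.10 higher at 1437682_x_at without overlap and 0.17 higher at its second probe set with overlap. Psmg1, a proteasome assembly chaperone (0.08), Dnajc28 (0.06), Tmem50b (-0.04) and the neuronal adhesion gene Dscam (-0.29 and -0.11) overlapped. Of the 41 genes on the array, 5 had no kept probe set. These were Runx1, a blood transcription factor with 6 probe sets and a highest value of 2.32, Sim2 (2.59), the potassium channel gene Kcnj6 (2.55), Cbr3 (2.27) and Bace2 (2.28).

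Agreement among probe sets of 1 gene was summarised for the 23 members with at least 2 kept. The median range of their differences was 0.28, beside 0.25 over 5104 genes with at least 2. The range was 0.5 or more in 7 of the 23 (30.4%, against 19.4% over those genes), and signs were mixed in 12 (52.2%, against 54.3%). In Son and Hmgn1 separate probe sets were without overlap in opposite directions, 2 of 23 genes (8.70%), beside 1.65% over those genes. In Son, Cryzl1, Itsn1 and Dyrk1a at least 2 probe sets were without overlap in 1 direction (17.4%, against 6.41%). Genes with more probe sets have more chances to meet either count, and Son, Ttc3 and Itsn1 had 6 or 7. These shares were not tested.

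Of 71 member probe sets in the test of deviations, none passed limma's adjusted p of 0.05, and 9 had an unadjusted p below 0.05 (12.7%, where 11.7% of all tested did). They belonged to Ifnar1 and Dyrk1a (2 each), Sod1 (2), Son, Cryzl1 and Brwd1. Deviations did not overlap between genotypes for 7 (9.86%, beside 19% over all). The first share was near that of all tested and the second below it.

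**Figure D4:**
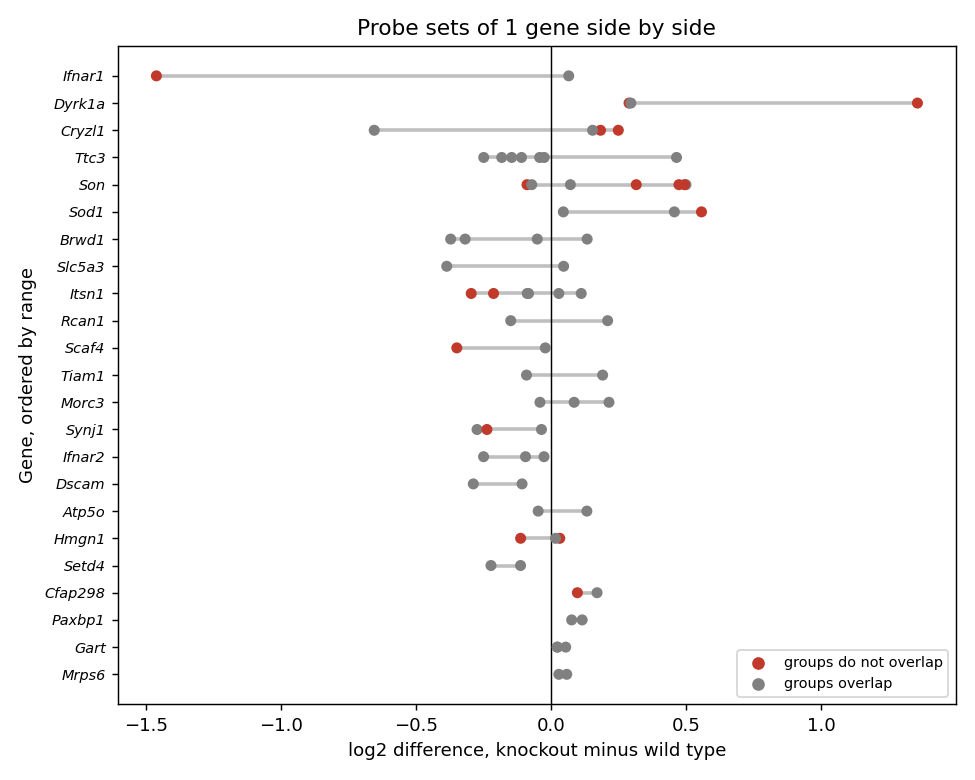
Log2 difference (knockout minus wild type, horizontal axis) of every kept probe set of the 23 member genes with at least 2, ordered by range, with red points where groups did not overlap. Ifnar1 has the widest range (1.53), with 1 probe set at -1.46 and the other at 0.07, while the probe sets of Gart and Mrps6 lie together near 0.

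With the kept probe sets of each gene averaged, 17 of the 36 genes were higher and 19 lower, with a median of -0.019, beside 0.0048 over 10630 genes. No gene passed limma's adjusted p of 0.05 (0% of all genes), and 6 genes had an unadjusted p below 0.05, where the share over all genes was 9.06%. The groups did not overlap for 8 genes, where the share over all genes was 16.3%.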

How the data were processed

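Affymetrix MOE430 2.0 arrays of 6 RNA pools were used. The authors deposited 1 log2 value per probe set and array. According to the labels' design description, GCOS and the MAS 5.0 algorithm handled the scans, after which GCRMA quantile-normalized, summarized and log2-transformed the signals. No versions are stated. GCRMA values have a floor near 2.27, where differences are compressed. The number of arrays limits precision.

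Probe sets were named from the platform annotation, and 34737 were placed on a chromosome through RefSeq (GRCm38). Genotypes were compared with limma 3.58.1 in R 4.3.3 (two-sided, Benjamini-Hochberg over all 22565 kept probe sets), without a block. Deviations of a probe set from others of its gene, and gene means, were fitted likewise. With 3 arrays against 3, an exact permutation test of a single value cannot go below 0.1. The limma steps were tested on simulated data. The members, gene lists and tests were chosen with earlier results of these data known.

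Named were members without overlap, or at unadjusted p under 0.05 in either test, and up to 2 more per role of lowest p, then up to 4 genes per pathway list. Alternatives were 3 filters, repeated quantile normalization, median centring, other variance models, array weights, a replicate block and left-out arrays. Both genotypes have a replicate 4 and a replicate 5, with no label tying equal numbers to a litter or day.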

Additional observations from a re-analysis of the deposited data

How the results depend on the processing

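No member probe set and no probe set at all passed limma's adjusted p of 0.05 under any filter, normalization, variance model, array weights, block or left-out array. The count of member probe sets without overlap was 18 or 19 under the filters and normalizations, 21 to 34 with 1 array left out and 45 without knockout replicate 2 and wild-type replicate 4, since fewer arrays overlap less often. The count at unadjusted p of 0.05 was 12, and 2 to 17 with 1 array left out: 2 without knockout replicate 4 or 5, 6 with wild-type replicate 1 left out and 5 with wild-type replicate 5 left out. The count of deviations past an adjusted p of 0.05 was 0, and 2 (both of Ifnar1) without the 2 arrays, where 0.137% of all tested deviations passed. With the replicate block the count at unadjusted p of 0.05 was 9 and none passed after adjustment; deviations of the arrays numbered 4 correlated by -0.29 and of those numbered 5 by 0.32, and the labels do not say whether equal numbers share a batch.

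Small differences turned sign. Sod1 1435304_at was -0.0093 with array weights and -0.0014 with the block. Ifnar1 1449026_at was -0.0030 without both arrays and -0.053 to 0.17 with 1 left out. Dnajc28 was -0.018 and Psmg1 -0.015 with the block, and with 1 array left out they ranged from -0.012 to 0.096 and from -0.046 to 0.17. Mrps6 1424440_at ranged from -0.0035 to 0.11. Tmem50b was 0.10 with array weights, 0.13 with the block and -0.15 to 0.089 with 1 left out. The mean of a gene's kept probe sets opposed its brightest for Ifnar1 (-0.70), Son (0.24), Cryzl1 (-0.018), Itsn1 (-0.090), Rcan1 (0.030), Hmgn1 (-0.021), Tiam1 (0.050) and Slc5a3 (-0.17). The cause of these turns was not tested. Beside the 38 probe sets followed through every alternative, other members also turned: Morc3 1420092_at (-0.049), Donson (0.047), Synj1 1454961_at (0.017) and Ttc3 1460077_at (0.033) without knockout replicate 2, Ttc3 1441684_at (0.40) and Itsn1 1436579_s_at (-0.0021) without wild-type replicate 4, and Scaf4 1427333_s_at (0.040) without both.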
